A study of Mus musculus with 10 samples.

Results

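Id1, Id2, Id3 and Id4 and a set of genes of the bone morphogenetic protein (BMP) pathway were measured in 10 whole mouse lungs at E18.5, late in gestation. The 10 genes are the 4 Id genes, the ligands Bmp4 and Bmp5, the receptors Bmpr1a and Bmpr2, and the inhibitory Smad genes Smad6 and Smad7. They were chosen by name, with earlier results of these data known. Each had 1 probe set that the array's annotation ties to that gene alone, so all 10 of the 10 were measured among 17919 genes. Bmpr2 also had a probe set shared with Gm20272, which is given apart below.

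One group held 5 lungs labelled Shhcre control and the other 5 lungs labelled Shhcre:Hdac3fl/fl, the knockout, all on a mixed background of C57BL/6, 129X1 and 129S6. Shhcre is a Cre recombinase driven from the Sonic hedgehog gene, whose activity in the developing lung is epithelial, so Hdac3, a histone deacetylase, is removed from epithelium and kept in mesenchyme, endothelium and blood. The embryos came from Hdac3 fl/fl mothers and Hdac3 fl/+ ShhCre fathers. The Hdac3 alleles of the control lungs are not stated; in this cross every embryo receives 1 floxed allele from its mother, and a Cre-carrying control would be a heterozygote. The lungs are called biological replicates, 1 array each, and which of them were littermates is not stated.

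Hdac3 itself lay between 10.67 and 10.90 (log2 probe set level) in the 5 controls and between 10.34 and 10.61 in the 5 knockouts, and fell by 0.31 ± 0.07 (SE; limma adjusted p = 0.0203). Of 10 lung epithelial markers, 0 were called (3 at an unadjusted p under 0.05); with the sets of lungs described next as a block, Cdh1 was called higher (0.18, adjusted p = 0.0372). The markers Sftpc and Nkx2-1 were well above the low end of the scale in every lung. Of the 10 markers, 5 differences lay above 0 and 5 below, from -0.48 (Sftpa1) to 0.20 (Foxa2). In both groups lungs 1 to 3 differed from lungs 4 and 5 in the immediate early genes: the mean level of 21 such genes ran from 9.02 to 9.31 in lungs 1 to 3 and from 8.67 to 8.89 in lungs 4 and 5. The labels name no batch, so this split rests on the values themselves. Values within these 2 sets of lungs are given where they differ.

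BMPs are secreted ligands that bring together type I receptors such as Bmpr1a and the type II receptor Bmpr2, which then phosphorylate Smad1, Smad5 and Smad9. These enter the nucleus with Smad4 and switch on target genes, among which Id1, Id2 and Id3 and the inhibitors Smad6 and Smad7 are the classic ones. Id proteins have a helix-loop-helix domain but no DNA-binding region, and they hold E proteins such as Tcf3 away from DNA. In the developing lung Bmp4 is made at distal epithelial tips and in mesenchyme, Bmp5 mainly in mesenchyme, and Id genes are expressed in epithelium, mesenchyme and endothelium.

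The stretches upstream of Id2, Id3 and Id4, but not Id1, are shown first, as a description only. Their part in the changes given below was not tested. They are the 250 bases before the RefSeq start site in GRCm38.p6, read 5′ to 3′ on the gene's strand. Capitals mark 3 motifs searched on both strands: GGCGCC, a GC-rich element bound by BMP Smads, GTCTG (or CAGAC), which holds the Smad box, and TGACG (or CGTCA), the core of a cyclic AMP response element. CGTCA and CAGAC overlap in Id3.
Id3 (chr4:136143572-136143821, plus strand): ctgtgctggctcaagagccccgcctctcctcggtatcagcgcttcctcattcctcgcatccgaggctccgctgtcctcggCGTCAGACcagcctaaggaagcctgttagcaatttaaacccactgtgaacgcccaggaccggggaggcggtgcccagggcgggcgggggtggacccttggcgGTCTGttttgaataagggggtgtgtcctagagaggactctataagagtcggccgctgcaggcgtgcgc
Id2 (chr12:25096093-25096342, minus strand): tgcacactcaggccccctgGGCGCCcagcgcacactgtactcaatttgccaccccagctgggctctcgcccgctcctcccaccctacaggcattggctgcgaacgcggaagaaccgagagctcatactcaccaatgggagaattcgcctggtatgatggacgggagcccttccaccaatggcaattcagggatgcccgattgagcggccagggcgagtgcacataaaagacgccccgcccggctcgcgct
Id4 (chr13:48260866-48261115, plus strand): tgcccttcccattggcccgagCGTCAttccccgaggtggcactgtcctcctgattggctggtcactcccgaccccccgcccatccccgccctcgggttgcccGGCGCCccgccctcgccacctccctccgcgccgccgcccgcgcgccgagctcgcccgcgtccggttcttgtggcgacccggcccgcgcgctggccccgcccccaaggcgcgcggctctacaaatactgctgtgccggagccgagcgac

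The Id3 stretch held GTCTG or CAGAC at 2 places and TGACG or CGTCA at 1, with 0 matches to GGCGCC. The Id2 stretch held GGCGCC at 1 place and neither of the other motifs. The Id4 stretch held GGCGCC at 1 place and TGACG or CGTCA at 1. Over 32851 promoter stretches of the same length, 9.6% held GGCGCC, 42.2% GTCTG or CAGAC, and 17.8% TGACG or CGTCA. These matches describe the letters in this window and no binding was measured.

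The Id genes did not change alike. Id1 and Id3 rose in the knockout, to 155.3% and 163.8% of the control level, while Id2 and Id4 were not called. Of the 10 genes, 2 rose, 1 fell (Bmp5) and 7 were not called by limma at an adjusted p of 0.05; over all 17919 genes, 1.54% were called higher and 1.58% lower. With 10 genes chosen by name and with earlier results known, these counts are a description of the set. In whole lung, more RNA per cell and more cells of a type that makes the RNA cannot be told apart.

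Id1, which is among the most direct BMP targets, was measured at 8.48, 8.84, 8.88, 8.45 and 8.41 in controls 1 to 5 and at 9.39, 9.25, 9.48, 9.15 and 8.96 in knockouts 1 to 5 (log2 level). Every knockout lung lay above every control lung, with the lowest knockout value in lung 5. The means were 8.61 ± 0.23 and 9.25 ± 0.21 (SD, n = 5 each), a log2 change of 0.635 ± 0.12 (SE; limma adjusted p = 0.0107). The change was 0.64 in lungs 1 to 3 and 0.62 in lungs 4 and 5, so that it was nearly the same size in both sets.

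Id3, which is often induced together with Id1, was measured at 8.19, 8.42, 8.496, 8.23 and 8.66 in controls 1 to 5 and at 9.11, 9.36, 9.34, 8.95 and 8.79 in knockouts 1 to 5. The groups did not overlap, but knockout 5 stood only just above control 5. The means were 8.40 ± 0.20 and 9.11 ± 0.24 (SD, n = 5 each), a log2 change of 0.71 ± 0.12 (SE; limma adjusted p = 0.00574). The change was 0.90 in lungs 1 to 3 and 0.43 in lungs 4 and 5; the difference between the sets was not tested. With only lungs 4 and 5, 2 against 2, neither Id1 (adjusted p = 0.16) nor Id3 (adjusted p = 0.574) was called, and just 2 genes of all were.

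Id2, the Id gene known for marking distal tip progenitors of the embryonic lung, was measured at 11.30, 11.35, 11.22, 11.34 and 11.21 in controls 1 to 5 and at 11.31, 11.39, 11.40, 11.66 and 11.58 in knockouts 1 to 5. Of the knockout lungs, 4 lay above all controls and knockout 1 did not, and the 2 highest values were those of knockouts 4 and 5. The log2 difference was 0.18 (95% interval 0.03 to 0.33) and was not called (limma adjusted p = 0.249). It was 0.07 in lungs 1 to 3 and 0.34 in lungs 4 and 5, the opposite order to that of Id3.

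Id4, the most divergent member in its regulation, was measured at 6.91, 6.87, 6.83, 7.15 and 7.02 in controls 1 to 5 and at 6.88, 6.88, 6.99, 6.89 and 6.73 in knockouts 1 to 5. The groups overlapped: 4 knockout lungs lay within the control range and knockout 5 below it. The log2 difference was -0.08 (95% interval -0.23 to 0.07; limma adjusted p = 0.701), an interval that lies below those of Id1 and Id3. It was 0.05 in lungs 1 to 3 and -0.28 in lungs 4 and 5.

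**Figure D1:**
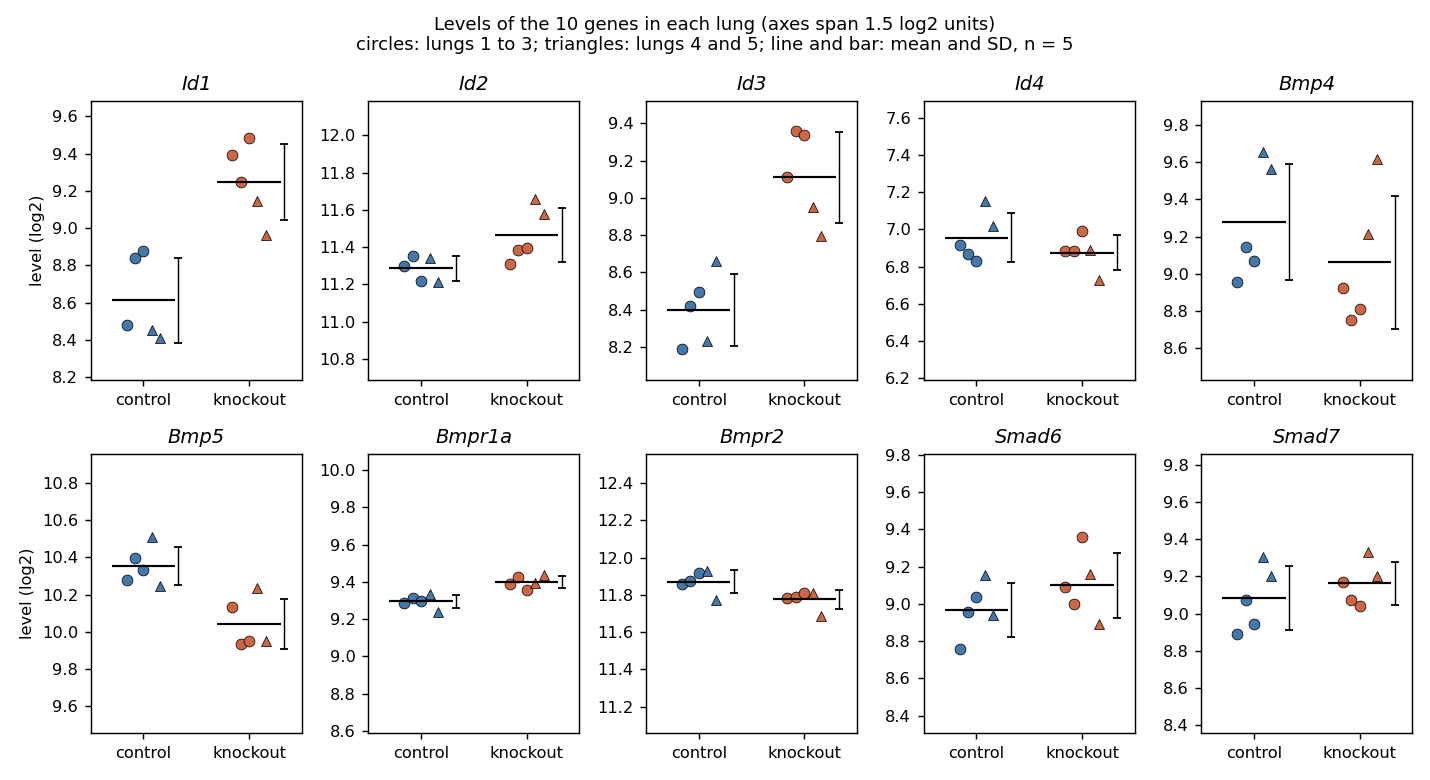
Log2 probe set level (vertical axis, each panel spanning 1.5 log2 units) of the 10 genes in 5 control and 5 knockout lungs; circles are lungs 1 to 3, triangles lungs 4 and 5, and lines with bars the mean and SD. Id1, Id3 and Bmpr1a knockout lungs lie above all controls, though Bmpr1a was not called. Bmp5 knockout lungs lie below all controls, and Bmp4 is split by lung number in both groups.

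The differences among the Id genes were tested on the log2 difference between 2 Id genes within each lung, for 6 pairs of genes. An exact permutation test (two-sided) ran over every split into 5 and 5 lungs, and its smallest p is 0.00794. This test used neither the pairing by lung number nor the 2 sets of lungs. Paired sign flips over 5 pairs cannot reach a p under 0.05 and called none of these differences. The change of Id1 exceeded that of Id4 by 0.72 ± 0.16 (SE), and that of Id3 exceeded Id4 by 0.79 ± 0.14, each with exact permutation p = 0.00794 (0.0238 after Benjamini-Hochberg adjustment over the 6 pairs) and in 5 of 5 same-numbered pairs. The change of Id1 exceeded that of Id2 by 0.46 ± 0.18, and the change of Id3 exceeded that of Id2 by 0.53 ± 0.20 (SE). Each had exact permutation p = 0.0397 (adjusted 0.0476), just past the threshold. Id1 had the larger change than Id2 in 5 of 5 same-numbered pairs. Id3 did so in 4 of 5, since in lung 5 Id2 differed by 0.36 and Id3 by 0.13. The change of Id2 exceeded that of Id4 by 0.26 ± 0.11 at the same p. These last 3 differences lost their call when most single lungs were left out. The changes of Id1 and Id3 differed by 0.08 ± 0.14 (exact permutation p = 0.556), less than the spread between lungs.

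Within the groups, none of the 6 pairs of Id genes had a correlation that passed adjustment. The deviations of Id1 and Id3 from their group means over 10 lungs had r = 0.51 (exact permutation p = 0.156, adjusted over 6 pairs 0.432) and rho = 0.42 (exact permutation p = 0.261, adjusted 0.66), with r = 0.36 without the 2 lungs farthest out. Those of Id2 and Id3 had r = -0.69 (exact permutation p = 0.0604, adjusted 0.363) and rho = -0.64 (exact permutation p = 0.0694, adjusted 0.416), with r = -0.55 without the 2 farthest lungs. When deviations were taken within each set of lungs, r was -0.23 for Id2 and Id3 and 0.42 for Id1 and Id3. It was highest for Id2 and Id4, at 0.74, a pair with r = -0.15 before (exact permutation p = 0.676, adjusted 0.754); no p was computed within the sets. All 6 pairs share the same lungs and their split into lungs 1 to 3 and lungs 4 and 5.

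The ligands were both at lower means in the knockout, and Bmp5 was called. Bmp5 was measured at 10.28, 10.40, 10.33, 10.51 and 10.25 in controls 1 to 5 and at 10.13, 9.94, 9.95, 10.24 and 9.95 in knockouts 1 to 5. The groups did not overlap, though knockout 4 and control 5 nearly met. The means were 10.35 ± 0.10 and 10.04 ± 0.14 (SD, n = 5 each), a log2 change of -0.31 ± 0.07 (SE; limma adjusted p = 0.0367), which left 80.6% of the control level. It was lower in 5 of 5 same-numbered pairs, with differences of -0.33 in lungs 1 to 3 and -0.28 in lungs 4 and 5. The call is close to the threshold. It was lost when any of controls 1, 2, 3 or 4 or knockouts 1, 2, 3 or 5 was left out. The limma adjusted p then ran from 0.0502 to 0.0976. It was also lost with only lungs 1 to 3 (adjusted p = 0.0563) and with values floored at 6.3 (adjusted p = 0.0766). All Bmp5 values lie above 6.3, so the floor changed only other genes in the same fit.

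Bmp4, which shapes the distal tip and proximal-distal patterning, was measured at 8.96, 9.14, 9.07, 9.65 and 9.56 in controls 1 to 5 and at 8.92, 8.75, 8.81, 9.21 and 9.61 in knockouts 1 to 5. In each group lungs 4 and 5 were the highest, and this split was wider than the distance between the group means. The log2 difference was -0.21 (95% interval -0.60 to 0.17; limma adjusted p = 0.692). It was lower in 4 of 5 same-numbered pairs, the exception being lung 5 (0.05). With the replicate number as a block its SE went from 0.18 to 0.08, and it was still not called (adjusted p = 0.2).

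The receptors had small differences of opposite sign, and neither was called. Bmpr1a, a type I receptor, was measured at 9.29, 9.31, 9.30, 9.34 and 9.24 in controls 1 to 5 and at 9.39, 9.43, 9.36, 9.39 and 9.44 in knockouts 1 to 5. The groups did not overlap and each was tight, with SDs of 0.04 and 0.03. The log2 difference was 0.11 (95% interval 0.02 to 0.19) and was not called (limma adjusted p = 0.247), except with values floored at 6.3 (adjusted p = 0.0395). All Bmpr1a values lie above 6.3, so the floor changed only other genes in the same fit.

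Bmpr2, the type II receptor, was measured at 11.86, 11.87, 11.92, 11.93 and 11.77 in controls 1 to 5 and at 11.78, 11.79, 11.81, 11.81 and 11.69 in knockouts 1 to 5. The groups overlapped through control 5, and each knockout lay below its same-numbered control, by 0.07 to 0.12. The log2 difference was -0.09 (95% interval -0.20 to 0.01; limma adjusted p = 0.425). The probe set shared with Gm20272 had means of 10.77 ± 0.14 and 10.73 ± 0.26 (SD, n = 5 each). Of the 10 genes, 4 (Id1, Id3, Bmp5 and Bmpr1a) had groups that did not overlap, against 5.11% of all genes. This count too is only a description of the chosen set.

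The inhibitory Smads, which feed back on the receptors and are themselves BMP targets, were not called. Smad6, the inhibitor most selective for BMP receptors, was measured at 8.76, 8.96, 9.04, 9.15 and 8.94 in controls 1 to 5 and at 9.09, 8.997, 9.36, 9.16 and 8.89 in knockouts 1 to 5. Its groups overlapped, with the highest value in knockout 3 and the lowest in control 1. Its difference was 0.13 (95% interval -0.07 to 0.33; limma adjusted p = 0.616). It was 0.23 in lungs 1 to 3 and -0.02 in lungs 4 and 5.

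Smad7, which also blocks TGF-beta receptors, was measured at 8.89, 9.08, 8.94, 9.30 and 9.20 in controls 1 to 5 and at 9.17, 9.07, 9.04, 9.33 and 9.20 in knockouts 1 to 5. Its groups overlapped, and the highest value of each group was that of lung 4. Its difference was 0.08 (95% interval -0.10 to 0.26; limma adjusted p = 0.771). The upper ends of the Smad6 and Smad7 intervals, 0.33 and 0.26, lie under the lower ends of those of Id1 (0.38) and Id3 (0.45); the differences between these genes were not tested.

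**Figure D2:**
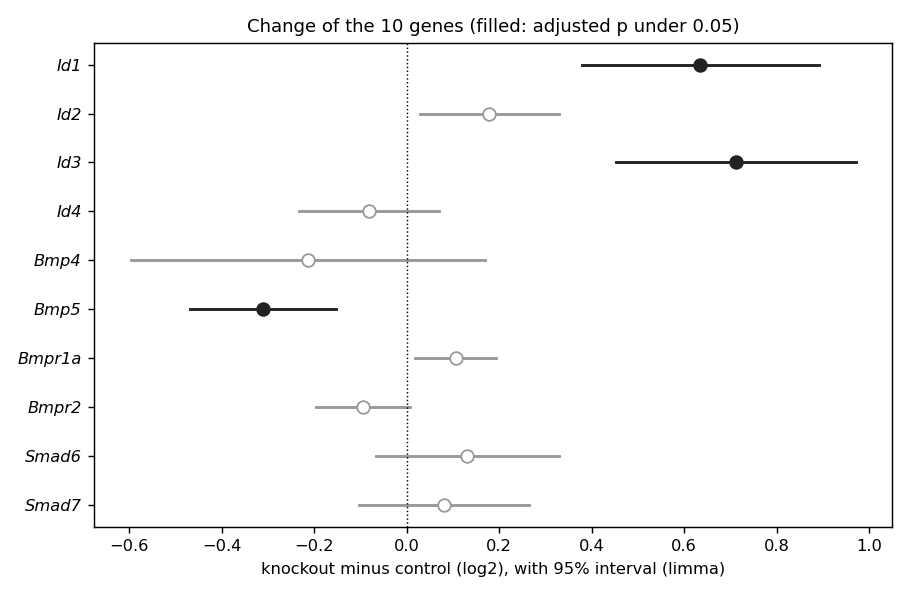
Log2 difference, knockout minus control (horizontal axis), of the 10 genes with limma's 95% interval; filled points have an adjusted p under 0.05. Id1 (0.635) and Id3 (0.71) lie to the right, Bmp5 (-0.31) to the left, and the intervals of Id4, Bmp4, Bmpr2, Smad6 and Smad7 include 0.

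Taking the replicate number as a block did not change which of the 10 genes were called: Id1 (adjusted p = 0.00206), Id3 (0.01) and Bmp5 (0.0167), against a background of 2.28% of genes called higher and 2.44% lower in that fit. Id1 was higher in 5 of 5 same-numbered pairs, by 0.41 to 0.91, and Id3 in 5 of 5, by 0.13 to 0.94. The smallest Id3 difference was that of lung 5, and the smallest Id1 difference that of lung 2. Id2 was also higher in 5 of 5 pairs, but by only 0.01 in lung 1 and 0.36 in lung 5.

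**Figure D3:**
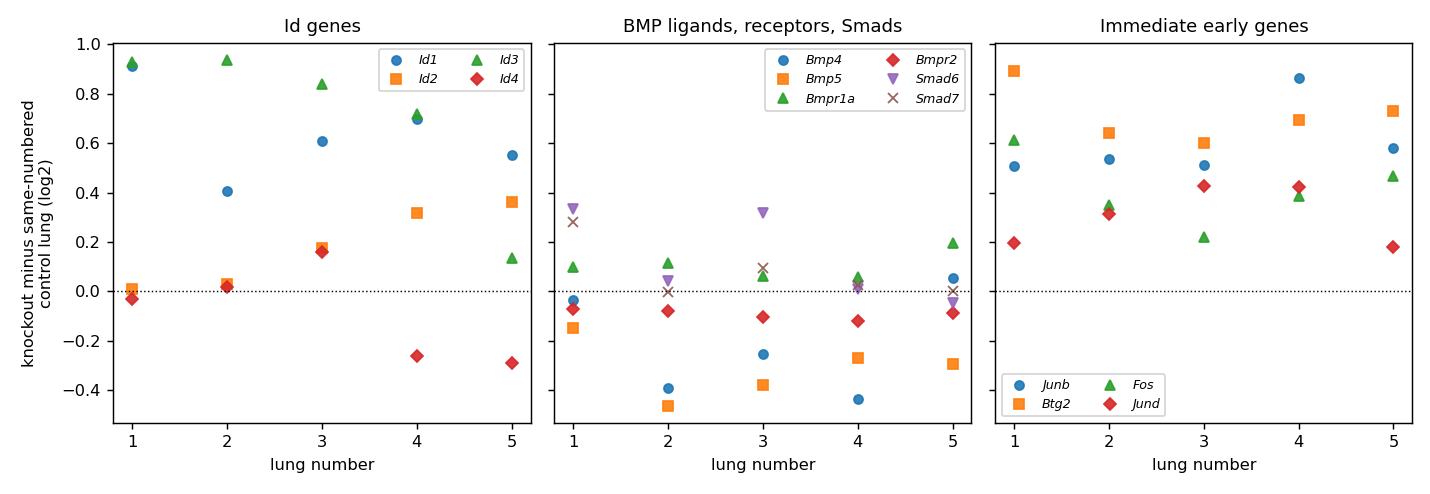
Log2 difference between the knockout and control lung of the same number (vertical axis) for lung numbers 1 to 5, in 3 panels of Id genes, BMP ligands, receptors and Smads, and 4 immediate early genes. Id1 and Id3 are above 0 at every number, Id4 ranges from -0.29 to 0.16, Bmp5 is below 0 at every number, and Junb and Btg2 are at 0.51 or more throughout.

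No other pathway gene was called beside Id1, Id3 and Bmp5. Of 58 other genes listed for the pathway, 53 were measured. Limma called 0 of them in either direction, with 7 at an unadjusted p under 0.05. Counts at that unadjusted threshold, in this list and in the marker lists, were not compared with all genes and are descriptions only. Their median log2 difference was -0.05, against 0.0042 over all genes; 18 lay above 0 and 35 below. With the replicate block 2 were called higher, Ski (0.19, adjusted p = 0.0473) and Skil (0.26, adjusted p = 0.0321), related nuclear corepressors that bind Smads; Skil is named after its values were seen. With the 2 sets of lungs as a block, Rgmb alone was called, lower (-0.16, adjusted p = 0.0385).

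Among 11 other ligands the median difference was -0.12, with 8 below 0 and 0 called. Bmp8b had the smallest p (-0.29, limma adjusted p = 0.115), with means of 6.27 and 5.98, both under the 20th percentile of all values (6.3), where differences are uncertain; Bmp10 and Gdf6 also lay under it. Among 7 receptors and co-receptors, including the endothelial pair Acvrl1 and Eng, the median was -0.07 and 0 were called. Rgmb, a BMP co-receptor, had the smallest p (-0.16 ± 0.06, SE; adjusted p = 0.268).

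Among 10 Smads and intracellular regulators the median was 0.01 and 0 were called. Ski, which represses Smad-driven transcription, had the smallest p: its means were 9.54 ± 0.08 and 9.73 ± 0.09 (SD, n = 5 each), a difference of 0.19 ± 0.06 (SE; limma adjusted p = 0.101) in groups that did not overlap. It was called without knockout 5 (adjusted p = 0.0408). The signal carriers Smad1, Smad5 and Smad9 had differences of 0.06, -0.08 and -0.13, and Smad4 of -0.045.

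Among 13 secreted antagonists and modulators the median was -0.05 and 0 were called. Nbl1, a secreted antagonist of the DAN family, had the smallest p (-0.20 ± 0.06, SE; limma adjusted p = 0.0943), and Nog and Grem1 had both means below 6.3. Among 8 further target genes, including Hey1, Tmem100 and Atoh8, the median was -0.06, 0 were called and 0 had an unadjusted p under 0.05; Dlx2 had the smallest p (-0.15, adjusted p = 0.383). Among 4 helix-loop-helix partners of Id proteins 0 were called. Tcf3, which encodes the E proteins E12 and E47, had the smallest p (0.11, limma adjusted p = 0.55). Tcf4 and Tcf12 stood at -0.03 and -0.02. Tcf21 had the largest difference (-0.16, adjusted p = 0.624) and was lower in 5 of 5 same-numbered pairs.

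**Figure D4:**
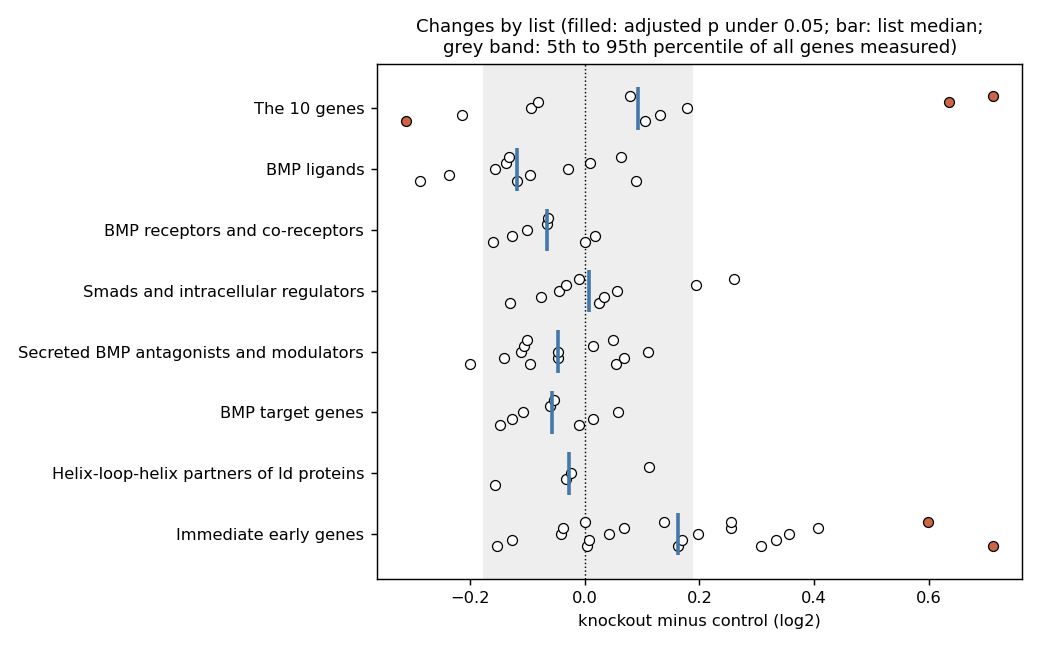
Log2 difference, knockout minus control (horizontal axis), of each measured gene in the 10 genes, the 6 pathway lists and the immediate early list; filled points have an adjusted p under 0.05, blue bars are list medians, and the grey band spans the 5th to 95th percentile of all 17919 genes (-0.18 to 0.19). Filled points are Id1, Id3 and Bmp5 among the 10 genes and Junb and Btg2 among the immediate early genes, with 0 in the 6 pathway lists.

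Id1 and Id3 are also known as genes that respond quickly to serum and other stimuli, and immediate early genes are given for that reason. Of 21 measured, 2 rose and 0 fell: Btg2, an antiproliferative gene, by 0.71 ± 0.07 (SE; limma adjusted p = 0.000111), and Junb, an AP-1 subunit, by 0.60 ± 0.10 (adjusted p = 0.00559). Over all genes, 1.54% were called higher and 1.58% lower. The median of the list was 0.16, against 0.0042 over all genes, with 17 above 0. With the replicate block 6 rose, against 2.28% of all genes called higher in that fit. Fos, for example, went from limma adjusted p = 0.668 to 0.00792 at a difference of 0.41. The mean level of the list ran from 8.67 to 9.05 in controls and from 8.78 to 9.31 in knockouts, and 0 of its genes had both means below 6.3. The part of this list in the Id1 and Id3 changes was not tested.

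The genes whose levels over the 10 lungs were most like those of Id1, among 13119 named genes above the 20th percentile, were Dhrs7 (r = 0.96), Polr2e (0.96), Tinagl1 (0.95), Zcchc4 (0.95) and Cldn4 (0.95). Those most like Id3 were Wfdc1 (0.98), Tmem248 (0.97), Slc25a20 (0.95), Dcxr (0.95) and Etv3 (0.94). Id3 stood at rank 121 for Id1 (r = 0.87), and Id1 at rank 93 for Id3. These correlations describe 10 lungs that share the difference between the groups, so genes that rose were favoured in the ranking. For deviations from the group means, r ran from 0.73 (Etv3 with Id3) to 0.94 (Dhrs7 with Id1). Of these 10 genes, Polr2e, Tinagl1, Cldn4, Wfdc1, Tmem248 and Etv3 were themselves called higher, with log2 changes of 0.39, 0.42, 1.95, 0.70, 0.24 and 0.72. Over all genes 1.54% were called higher, but calls among genes chosen in this way are a description only. The calls of Polr2e and Tmem248 were close to the threshold. Polr2e was not called without control 4 or 5 or knockout 1, 2 or 3 (adjusted p from 0.0514 to 0.0562), nor with values floored at 6.3 (0.0549). Tmem248 was not called without any 1 of the controls or knockout 1, 2 or 3 (adjusted p from 0.0534 to 0.0804). Neither was called with only lungs 4 and 5 (0.323 and 0.695).

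Markers of the cell types that could carry Id1, Id3 or Bmp5 were compared in the same fit. Their counts at an unadjusted p under 0.05 were not compared with all genes. Over all genes, 1.54% were called higher and 1.58% lower, or 2.28% and 2.44% with the replicate block. Of 10 endothelial markers 0 were called (0 at an unadjusted p under 0.05), with a mean level of 10.52 to 10.63 in controls and 10.51 to 10.58 in knockouts. Of 8 fibroblast markers 0 were called (0 at an unadjusted p under 0.05), at 10.28 to 10.44 and 10.23 to 10.45, and of 8 smooth muscle and pericyte markers 0 (1 at an unadjusted p under 0.05; 8 of 8 differences below 0), at 9.56 to 9.68 and 9.41 to 9.58. With the replicate block 1 of these, Cnn1, was called lower (-0.41, adjusted p = 0.0275). Of 6 mesothelial markers, 3 differences lay above 0 and 3 below. Msln and Krt19, which epithelium can also express, were called higher, by 0.46 and 0.67. Upk1b stood at 0.185, Upk3b at -0.26, Lrrn4 at -0.017 and Wt1 at -0.001. Upk3b was called lower with the replicate block (adjusted p = 0.0271) and with the sets of lungs as a block (0.0414). The mean level of the mesothelial list ran from 8.89 to 9.17 in controls and from 9.09 to 9.30 in knockouts. Of 8 leukocyte markers 1, Ctss, fell by 0.28, with 4 at an unadjusted p under 0.05 and 7 of 8 below 0. Laptm5 (-0.27) was also called lower with the replicate block (adjusted p = 0.0227) and with the sets as a block (0.022). The mean level of the leukocyte list ran from 8.36 to 8.48 and from 8.11 to 8.33, without overlap. Of 6 heart muscle, 4 thymocyte and 3 erythroid markers measured 0 were called (0 at an unadjusted p under 0.05). The erythroid gene Slc4a1 was called higher with the replicate block (0.22, adjusted p = 0.0461). The part of cell makeup in the changes of Id1, Id3 and Bmp5 was not tested.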

How the data were processed

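RNA of 10 lungs, 5 per group, was hybridised to 1 array each. Poly(T) primers were used on 100 ng of total RNA, per the labels' protocols. The values are log2 probe set levels that the authors deposited; RMA, oligo and limma are named, per the submitters' processing notes, with versions and genome build not given in the sources used here. Of 24888 probe sets, 18922 had 1 gene symbol in the platform annotation, and the one of highest mean stood for each of 17919 genes. Differences were fitted with limma 3.58.1 (R 4.3.3; lmFit, eBayes) and called at an adjusted p under 0.05 (Benjamini-Hochberg, all 17919 genes together); the fit was tested on simulated data. P-values measure the spread between lungs. For arrays, the number of lungs limits precision; the median SE of a log2 difference was 0.07. The 10 genes, lists and rules were chosen with earlier results of these data known. Named were all 10 genes, up to 4 called genes per list or else the gene of smallest p, and the 5 genes most like Id1 and Id3; other genes named were chosen after their values were seen. Promoter sequences are RefSeq's (GRCm38.p6), matched by symbol for 8 of the 10 genes; those of Id1 and Smad7 were not used here.

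Both groups carry replicate numbers 1 to 5. Same-numbered lungs deviated together from their group means (r from 0.15 to 0.49 in 5 pairs, median -0.08 for different numbers). The main limma fit nevertheless held no block, so its SEs, intervals and adjusted p do not use a pairing by number. Pairing entered only the fit with the replicate block, the sign flips and the differences between same-numbered lungs. This pairing comes from the data, and 7 of 10 lungs matched their own number best. For different numbers r reached 0.33 (control 2 with knockout 1), above some same-numbered pairs. Every r between lungs of different sets was negative, while different numbers within a set ran from -0.02 to 0.33. The values thus also reflect the split into sets, and pairing apart from that split was not tested. Alternatives were the replicate block, other normalizations, filters and probe set rules, and omitted lungs.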

Additional observations from a re-analysis of the deposited data

Results flagged for a closer look

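Among 28 named genes in 2 groups each, 56 groups of 5 lungs were examined for a lung far from the rest, and 2 held one; chance gives about 1 in 20 groups. Bmpr2 was lowest in knockout lung 5, at 11.69, with the next lowest knockout lung at 11.78. Tcf3 was highest in control lung 2, at 8.92, with the next highest control lung at 8.75. Neither gene was called.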

How the results depend on the processing

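Of the 10 genes, Id1 and Id3 kept a call and a rise under 20 of 21 alternatives each, the exception being only lungs 4 and 5 (2 against 2), which left 0 of the 10 genes called higher; their changes ranged from 0.58 to 0.71 and from 0.43 to 0.90. Bmp5 was lower under all 21 but kept its call under 10. The count of the 10 genes called lower was 0 with only lungs 1 to 3, only lungs 4 and 5 or floored values, and ranged from 0 to 1 when single lungs were left out; the count called higher was 2 in each of these omissions. Other pathway genes called higher numbered 2 with the replicate block and 0 to 2 without single lungs (2 without knockout 5); called lower, 1 with the 2 sets of lungs as a block and 0 to 1 without single lungs (1 without control 2). Immediate early genes called higher numbered 6 with the replicate block, 4 with the sets as a block, 0 with only lungs 4 and 5, and 2 to 3 without single lungs. The 2 sets of lungs differ in this same list, so neither block is a separate check on it. All genes called numbered 559; with the replicate block 846, with the sets as a block 910, with only lungs 4 and 5 2, and 393 to 699 without single lungs.

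Differences between Id genes under quantile normalization were 0.46 (Id1 minus Id2, adjusted p = 0.0595), -0.54 (Id2 minus Id3, 0.0595) and 0.26 (Id2 minus Id4, 0.0667), each no longer called. Without single lungs they ranged from 0.38 to 0.56, from -0.64 to -0.45 and from 0.20 to 0.31; Id1 minus Id3 from -0.19 to -0.02, Id1 minus Id4 from 0.63 to 0.81 (call lost without knockout 1 or 2, adjusted p = 0.0714) and Id3 minus Id4 from 0.70 to 0.85. Paired sign flips as a replicate block cannot give a p under 0.0625 and left the values at 0.46, -0.53, 0.26, 0.72 and 0.79 with none called. The causes of these changes were not tested. Low-lying genes such as Bmp8b are limited by signal over background.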
